A study of Homo sapiens with 4 samples.

Results

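Named long intergenic noncoding RNA genes (LINC genes) were examined in HaCaT cells that overexpress TCN1 and in their negative control. A gene belonged to the set if its symbol was LINC followed by digits and its counts summed to 40 or more over the 4 libraries. The rule took 190 of the 857 LINC genes listed, among 29209 genes in all. Members were thus selected on their summed counts, blind to group, but LINC02518 was named in the rule because its difference between the groups was already known, so that difference is given as a description. At the limit, LINC02560 and LINC00412 had 40 summed counts and were inside, while LINC01269 and LINC02019 had 39 and were outside.

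HaCaT is a spontaneously immortalised human keratinocyte line. Per the labels, the TCN1_OE group (2 libraries) was a HaCaT line in which lentivirus drove TCN1 overexpression, and the NC group (2 libraries) was a HaCaT line labelled negative control, with no vector named for it. Both lines were grown in DMEM with fetal bovine serum and lysed in Trizol after 48 hours, and polyA RNA was sequenced. The labels name neither the promoter of the vector nor whether a line is 1 clone. Nor do they say that replicates were grown separately, and p-values then cover only library-to-library spread, which may be technical.

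TCN1, the gene of haptocorrin, which binds vitamin B12, had 1700 and 1253 counts in TCN1_OE, against 50 and 17 counts in NC. The libraries held 16586500 and 14756073 counts in TCN1_OE, and 19973550 and 11593377 in NC. All 14 keratinocyte markers examined averaged at least 1 FPKM (fragments scaled by gene length and library size). Of 20 listed markers of fibroblasts, melanocytes, immune and endothelial cells, 4 did so (COL1A1, MITF, CD14 and VWF). The summed level of these 4 lists ran from 1.04 to 3.09 FPKM per list in TCN1_OE and from 0.941 to 2.75 FPKM in NC. Listed were 5 of 8 fibroblast, 6 of 7 melanocyte, 5 of 8 immune and 4 of 6 endothelial markers. The rest had no entry in the deposited data.

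A LINC symbol is given to a long noncoding RNA gene that lies between protein-coding genes and has no better-known function to be named for. Such RNAs are transcribed by RNA polymerase II, mostly spliced and polyadenylated, and typically expressed at low levels and in few cell types. Some act in the nucleus on nearby genes or chromatin, others bind proteins or microRNAs in the cytoplasm, and for many no function is known. In keratinocytes, lineage transcription factors such as TP63 control several of them.

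Promoter windows of 4 members are shown because these genes carry the results below: LINC02541, LINC02035 and LINC00963, which had some of the largest gains in counts, and LINC02967, which had the highest level. Each window comes from RefSeq (GRCh38.p14) and runs from 250 bases before to 50 bases after the annotated start, 5′ to 3′ on the gene's strand. Capitals mark matches, on either strand, to the TATA box letters TATAAA, the AP-1 letters TGANTCA, the E-box letters CACGTG and the GC box letters GGGCGG, which may overlap one another. The windows lie at chr6:113650026-113650325 (minus strand), chr3:122886263-122886562 (plus), chr9:129488410-129488709 (plus) and chr20:24918314-24918613 (plus), in the order printed. The RefSeq start of LINC02967 lies upstream of the gene as GENCODE 29 has it, so that window may not serve the transcript counted here.
LINC02541: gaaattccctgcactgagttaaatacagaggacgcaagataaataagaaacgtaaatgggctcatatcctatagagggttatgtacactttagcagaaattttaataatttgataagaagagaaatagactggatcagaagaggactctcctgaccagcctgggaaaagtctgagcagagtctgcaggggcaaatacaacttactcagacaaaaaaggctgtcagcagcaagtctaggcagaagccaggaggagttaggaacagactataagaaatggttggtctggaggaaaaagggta
LINC02035: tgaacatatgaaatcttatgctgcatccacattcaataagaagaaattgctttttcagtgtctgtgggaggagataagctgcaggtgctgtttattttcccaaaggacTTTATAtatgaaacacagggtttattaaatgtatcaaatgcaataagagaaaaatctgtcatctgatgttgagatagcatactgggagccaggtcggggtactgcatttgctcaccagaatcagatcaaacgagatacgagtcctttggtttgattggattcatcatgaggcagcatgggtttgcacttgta
LINC00963: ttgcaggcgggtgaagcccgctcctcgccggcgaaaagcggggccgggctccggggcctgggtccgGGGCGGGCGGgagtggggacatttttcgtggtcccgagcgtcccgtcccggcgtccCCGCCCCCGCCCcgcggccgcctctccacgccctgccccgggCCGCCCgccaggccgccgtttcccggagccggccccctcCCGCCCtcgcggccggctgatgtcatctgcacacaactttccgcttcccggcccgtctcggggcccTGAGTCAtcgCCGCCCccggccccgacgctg
LINC02967: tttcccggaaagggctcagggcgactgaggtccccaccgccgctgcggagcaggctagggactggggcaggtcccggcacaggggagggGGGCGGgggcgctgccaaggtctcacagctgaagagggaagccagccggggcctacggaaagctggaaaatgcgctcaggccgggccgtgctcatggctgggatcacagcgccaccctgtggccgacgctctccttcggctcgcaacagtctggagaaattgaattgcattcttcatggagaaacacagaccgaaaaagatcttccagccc

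The window of LINC02541 held none of the 4 motifs, with a GC content of 41.7%. That of LINC02035 held 1 match, to the TATA box, at a GC content of 39.3%. That of LINC00963 was at the other extreme, with a GC content of 78.0% and 8 matches, 7 of them to the GC box and 1 to AP-1. RefSeq windows were found for 133 of the 190 genes, in 148 windows. The GC box letters were in 43.9% of these windows and in 45.0% of all 35116 windows. The TATA box letters were in 9.46% of the LINC windows and 11.5% of all windows, the AP-1 letters in 8.11% and 7.71%, and the E-box letters in 8.11% and 7.26%. The median GC content was 57.8% for the LINC windows and 58.7% for all windows, so the shares lay within a few percentage points of those of all windows. No match says only that the letters are not in the window.

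Most LINC genes were weakly expressed. Their mean level over the 4 libraries ran from 0.0416 to 34.7 FPKM with a median of 0.663 FPKM, against a median of 5.67 FPKM for the 12063 protein-coding genes in the same fit. Of the 190 genes, 5 averaged 10 FPKM or more, 71 averaged 1 to 10 FPKM and 114 were under 1 FPKM. All 190 had at least 1 count in every library. The median of the summed counts was 116.5, and the 10 genes with the most counts held 43.3% of the 78470 counts of the set. Over all 857 listed LINC genes, 633 and 565 had a count in TCN1_OE, against 629 and 518 in NC, with the fewest in the shallowest library.

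LINC02967 had the highest level, with 34.7 and 33.2 FPKM in TCN1_OE and 37.9 and 33.2 FPKM in NC. The groups overlapped, and the log2 fold change (TCN1_OE over NC) stood at -0.07 ± 0.12 (SE; edgeR quasi-likelihood test, adjusted p = 0.861). It lies on chromosome 20 at 24931840 to 24932983 of GRCh38.

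LINC00370, on chromosome 13, took the most counts of any member (11.4% of the set). It stood at 21.9 and 21.9 FPKM in TCN1_OE and at 22.2 and 22.3 FPKM in NC. The ranges did not overlap, yet the log2 fold change was -0.02 ± 0.09 (edgeR adjusted p = 0.956), so ranges that do not overlap can go with a very small difference when there are 2 libraries a group.

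LINC02518 had rank 3 by level. In GENCODE 29 (GRCh38) the gene spans chr6:113428540-113433421 on the minus strand. It had 313 and 300 counts in TCN1_OE, against 188 and 104 counts in NC, which is 25.5 and 27.4 FPKM in TCN1_OE against 12.7 and 12.1 FPKM in NC. Both TCN1_OE libraries lay far above both NC libraries, with group means of 26.5 ± 1.39 and 12.4 ± 0.422 FPKM (SD, n = 2 each). The log2 fold change was 1.09 ± 0.16, and it lay between 1.02 and 1.15 over the 11 alternatives in which it was computed. No other GENCODE 29 gene covers any of its exonic bases.

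The next 3 by level were LINC01503, LINC02541 and LINC03080. LINC01503, a super-enhancer-associated RNA that TP63 controls in squamous cell carcinoma, stood at 14.4 and 14.8 FPKM in TCN1_OE and at 12.4 and 13.7 FPKM in NC, with a log2 fold change of 0.17 ± 0.11 (edgeR adjusted p = 0.567). LINC02541 had 15.7 and 14.6 FPKM in TCN1_OE, against 11.3 and 11.1 FPKM in NC. LINC03080 had 7.82 and 9.05 FPKM in TCN1_OE, against 6.09 and 6.25 FPKM in NC. In all of these both TCN1_OE libraries lay above both NC libraries, but none passed: LINC02541 stood at 0.44 ± 0.12 (edgeR adjusted p = 0.148) and LINC03080 at 0.45 ± 0.11 (edgeR adjusted p = 0.122). LINC03080 was called without a filter on low counts (edgeR adjusted p = 0.0140) and without TCN1_OE replicate 1 (edgeR adjusted p = 0.0146), but had an edgeR adjusted p of 0.389 without TCN1_OE replicate 2.

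Of the 15 genes of highest level, 10 were above 0 and 5 below 0 in log2 fold change, and the median was 0.23. LINC02035, at rank 11, had 5.33 and 5.56 FPKM in TCN1_OE, against 3.43 and 3.61 FPKM in NC. Its groups did not overlap. The difference of 0.63 ± 0.13 on the log2 scale had the smallest edgeR adjusted p of the set after LINC02518, 0.0729. It was called without a filter on low counts (edgeR adjusted p = 0.00898), with DESeq2 (adjusted p = 0.0358), without TCN1_OE replicate 1 (edgeR adjusted p = 0.0446) and without NC replicate 2 (edgeR adjusted p = 0.0427). It was not called with limma (adjusted p = 0.221 and 0.219 at the 2 pseudocounts), without TCN1_OE replicate 2 (edgeR adjusted p = 0.121) or without NC replicate 1 (edgeR adjusted p = 0.140). LINC02593, at rank 13, had 4.60 and 4.88 FPKM in TCN1_OE, against 3.22 and 3.28 FPKM in NC, a log2 fold change of 0.55 ± 0.15 (edgeR adjusted p = 0.172). LINC02990, at rank 15, rested on 129 summed counts and varied within TCN1_OE, at 3.55 and 5.86 FPKM against 2.58 and 3.49 FPKM in NC.

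The remaining 6 of the 15 were LINC00294, LINC01560, LINC00842, LINC00958, LINC01836 and LINC02747, with group means between 3.65 and 5.83 FPKM. Their log2 fold changes ran from -0.24 ± 0.18 for LINC00842 to 0.24 ± 0.18 for LINC00294, with edgeR adjusted p from 0.617 to 0.960. Both ends rested on the TCN1_OE libraries: LINC00842 was at -0.11 without replicate 1 and at -0.39 without replicate 2, and LINC00294 at 0.0079 without replicate 1 and at 0.43 without replicate 2. For LINC00842, 3.84 and 4.58 FPKM in TCN1_OE lay below 5.14 and 4.81 FPKM in NC, and in the others the groups overlapped.

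**Figure D1:**
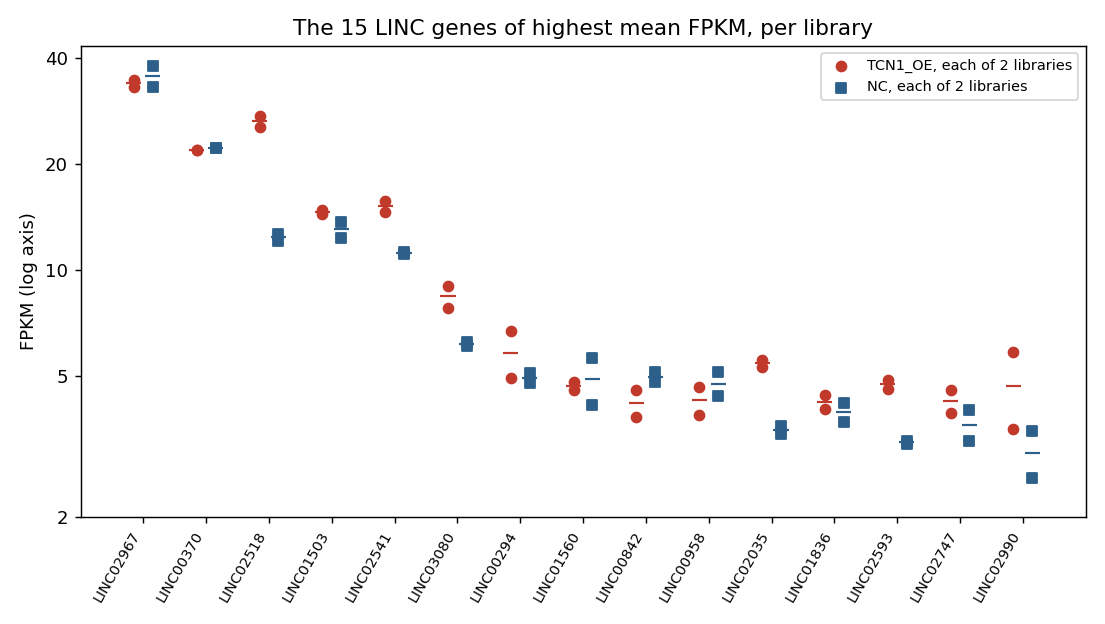
FPKM (log axis) of the 15 LINC genes of highest mean level in each library, TCN1_OE as circles and NC as squares, with the group mean as a short line. LINC02518 stands at 25.5 and 27.4 FPKM in TCN1_OE above 12.7 and 12.1 FPKM in NC, while LINC00370 is near 22 FPKM in all 4 libraries.

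The difference between the groups was tested with edgeR on the counts of the 14889 genes of all kinds with 40 or more summed counts, so every member was in the fit. Among all these genes, an adjusted p under 0.05 was reached by 0.282% in the higher and 0.188% in the lower direction. Of the 190 LINC genes, 1 was higher, LINC02518, whose difference had placed it in the rule, and 0 were lower. Of the other 189, 0 passed edgeR, while 21 were higher and 5 lower at an unadjusted p under 0.05. Over all genes fitted, that limit was reached by 6.25% in the higher and 6.58% in the lower direction, against 11.1% and 2.65% of the 189. With DESeq2, 2 LINC genes were called higher, LINC02518 and LINC02035, and with limma on log2(FPKM + 0.5) none was, where LINC02518 had an adjusted p of 0.0988.

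Small positive values were more frequent than negative ones. Of the 190 genes, 121 had a positive and 69 a negative log2 fold change, or 63.7% positive, where 51.0% of all genes fitted were positive. The median was 0.13 for the LINC genes, with quartiles of -0.12 and 0.40, and 0.01 for all genes fitted. Both TCN1_OE libraries lay above both NC libraries in 64 LINC genes, or 33.7%, against 21.6% of all genes fitted, and below them in 29, or 15.3%, against 21.2% of all genes fitted. The median SE of a single gene's log2 fold change was 0.36 for the LINC genes, against 0.16 for all genes fitted. The median size of the difference between the 2 libraries of a group was 0.27 in TCN1_OE and 0.25 in NC on the log2 scale. Between the group means it was 0.26, but a mean of 2 libraries varies less than 1 library, so these sizes are not like for like. Over all genes fitted they were 0.18, 0.18 and 0.16, in that order.

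The share of LINC genes with a positive value was larger in the more abundant ones, at 54.1% with 40 to under 100 summed counts, 68.2% with 100 to under 500 and 76.9% with 500 or more. Among other genes in the same ranges of counts the shares were 59.0%, 60.2% and 46.0%, in that order. Of 39 with 500 or more summed counts, 30 were positive, with a median of 0.23, whereas 9511 other genes in that range had a median of -0.02. Of 66 with at least 100 but under 500 counts, 45 were positive, with a median of 0.11, beside 0.09 for 2939 other genes. Of 85 with 40 to 99 counts, 46 were positive, with a median of 0.04, beside 0.12 for 2249 other genes. At 500 or more counts and without LINC02518, 12 of 38 LINC genes (31.6%) were higher and 0 lower at an unadjusted edgeR p under 0.05, beside 6.48% higher and 8.85% lower among the 9511 other genes. The range of 500 or more has no upper limit, so abundance was not matched within it. Its median SE was 0.17 for LINC genes and 0.12 for the others. The other genes were of all kinds, and the other noncoding classes described next were not split by abundance. The difference between these abundance groups was not tested.

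**Figure D2:**
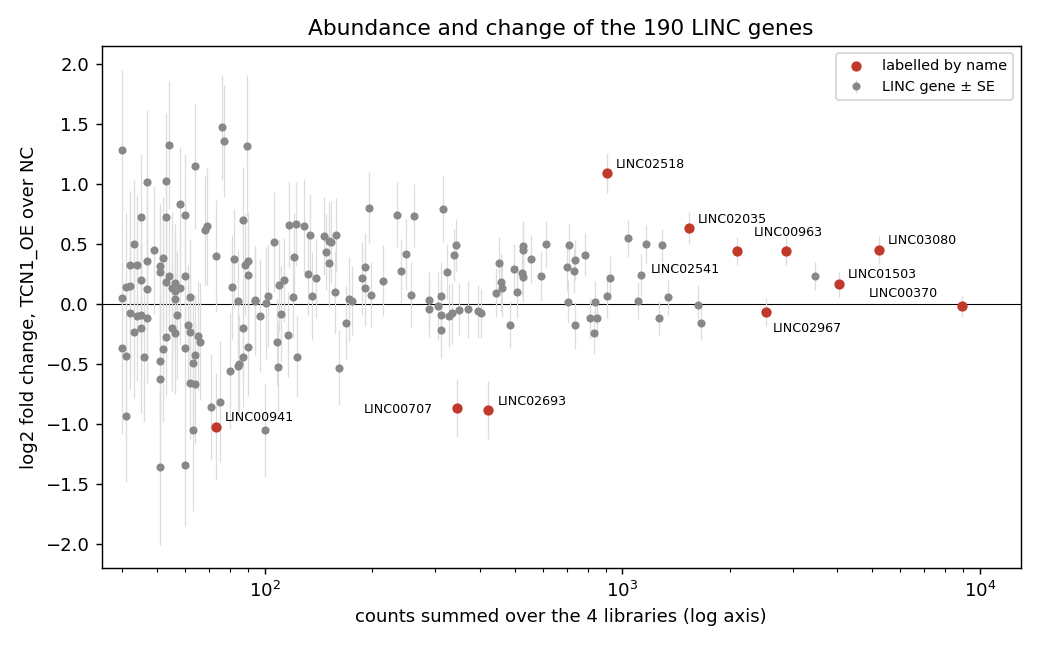
Log2 fold change of TCN1_OE over NC with its SE (edgeR) for each of the 190 LINC genes against its counts summed over the 4 libraries (log axis). LINC02518 stands apart at 1.09 among the genes with many counts, and the spread and the errors widen toward the limit of 40 counts.

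Medians above 0 were also found in other noncoding classes of GENCODE 29, and the difference between classes was not tested. The median log2 fold change was 0.15 for 462 lincRNA genes without a LINC symbol, 0.13 for 800 antisense genes, 0.11 for 123 processed transcripts and 0.04 for 366 processed pseudogenes, beside 0.13 for the LINC genes and -0.01 for 12063 protein-coding genes. LINC genes took 0.132% and 0.133% of the counts in TCN1_OE, against 0.117% and 0.118% in NC, a ratio of 1.13. The 2 groups did not overlap, and the exact two-sided permutation test gave p = 0.333, the smallest that 2 libraries against 2 allow. The other lincRNA genes took 0.473% and 0.443% in TCN1_OE, against 0.398% and 0.372% in NC. Protein-coding genes took 97.9% and 98.0% in TCN1_OE, against 98.1% and 98.2% in NC.

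On the CPM scale (counts divided by the library total), the LINC genes together had 1322 CPM in TCN1_OE and 1174 CPM in NC, a net difference of 148.6 CPM. Over the 190 genes, 118 gained a total of 191.5 CPM and for the other 72 the total was -42.9 CPM. The 5 largest gains made up 47.5% of the net difference. They were 25.8 CPM for LINC03080, 13.9 for LINC00963, 10.5 for LINC02035, 10.4 for LINC02518 and 9.99 for LINC02541. LINC02693 and LINC00707 had the largest losses, of -4.20 and -3.31 CPM. In bulk samples, a change in RNA per cell and a change in the share of cells that express a gene cannot be told apart.

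**Figure D3:**
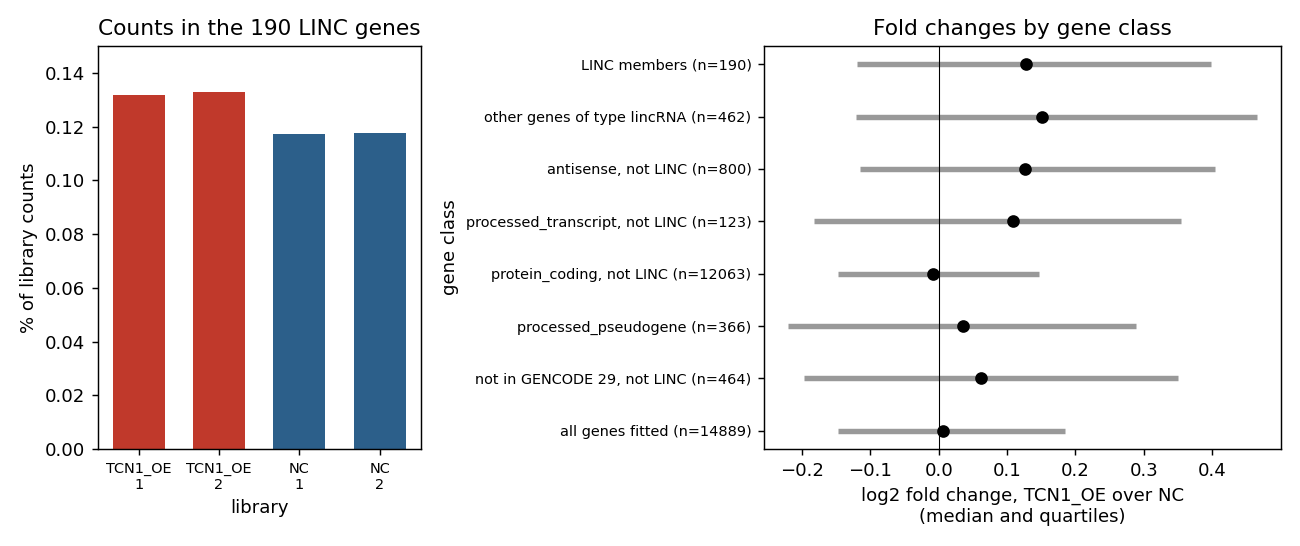
Left, the percent of each library's counts in the 190 LINC genes, which is 0.132 and 0.133 in the TCN1_OE libraries and 0.117 and 0.118 in the NC libraries. Right, the median log2 fold change of TCN1_OE over NC (dot) and its quartiles (bar) by gene class, with the noncoding classes of LINC, lincRNA and antisense genes between 0.13 and 0.15 and protein-coding genes at -0.01.

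Besides LINC02518, the largest positive values among genes with 100 or more summed counts and groups that did not overlap were those of LINC01138, LINC02615, LINC00479, LINC00324, LINC00519, LINC02381 and LINC02990. They ran from 0.65 ± 0.39 for LINC02990 to 0.80 ± 0.30 for LINC01138, and none passed, with edgeR adjusted p from 0.258 to 0.527. Single libraries moved some of them: LINC02990 was at 0.98 without TCN1_OE replicate 1, at 0.23 without TCN1_OE replicate 2 and at 0.42 without NC replicate 1, and LINC02615 at 1.22 without NC replicate 1 and at 0.51 without NC replicate 2. LINC00324, on chromosome 17, had 93 and 72 counts in TCN1_OE, against 55 and 42 counts in NC, or 2.67 and 2.32 FPKM against 1.31 and 1.73 FPKM. LINC00479, on chromosome 21, stood at 1.97 and 2.47 FPKM in TCN1_OE, against 1.30 and 1.35 FPKM in NC. LINC01138 has 21.9% of its exonic bases under another annotated gene, so its counts may not be its own alone.

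The 8 largest negative values chosen in the same way were those of LINC02936, LINC02693, LINC00707, LINC02976, LINC02551, LINC00624, LINC00920 and LINC03006, and none passed, with edgeR adjusted p from 0.160 to 0.815. LINC02693 had 78 and 73 counts in TCN1_OE, against 147 and 124 counts in NC, and a log2 fold change of -0.89 ± 0.24 (edgeR adjusted p = 0.160). GENCODE 29 lists this gene as protein-coding under the symbol C17orf51, so its LINC name is a later one. LINC00707 had 73 and 51 counts in TCN1_OE, against 129 and 93 counts in NC, and stood at -0.87 ± 0.24 (edgeR adjusted p = 0.167). LINC02936 had 14 and 18 counts in TCN1_OE, against 44 and 24 counts in NC, and stood at -1.05 ± 0.40 (edgeR adjusted p = 0.294). The value of LINC02693 depended on the NC libraries: it was -1.15 without NC replicate 1 (edgeR adjusted p = 0.0104) and -0.60 without NC replicate 2 (edgeR adjusted p = 0.444). It was also called without a filter on low counts (edgeR adjusted p = 0.0251).

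**Figure D4:**
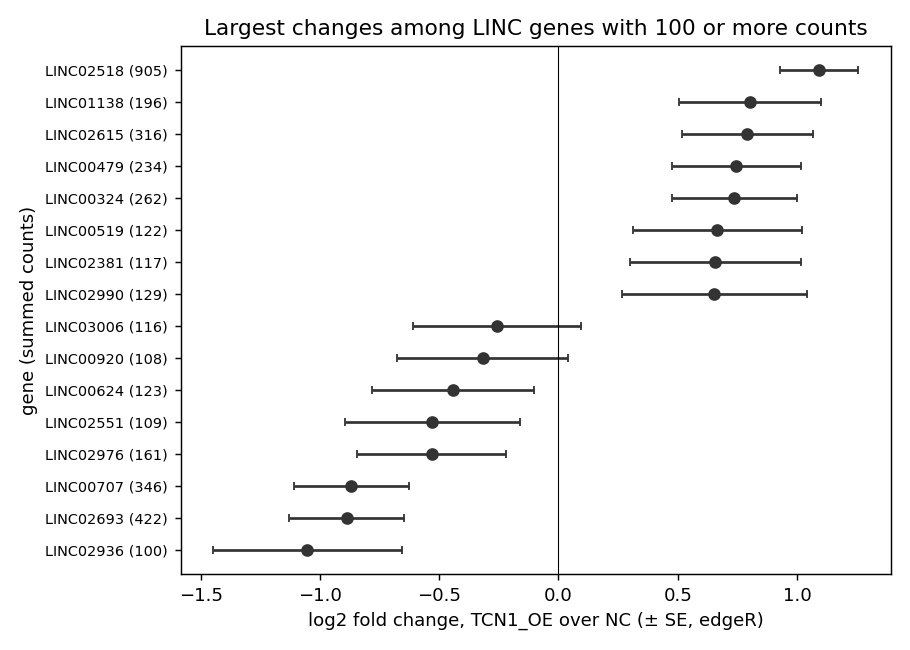
Log2 fold change of TCN1_OE over NC with its SE (edgeR) for the 8 largest positive and 8 largest negative values among LINC genes with 100 or more summed counts, given in brackets, and groups that did not overlap. LINC02518 is at the top with 1.09, and the other 15 did not pass the adjusted threshold.

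Below 100 summed counts, 12 LINC genes had a log2 fold change beyond 1 in size, 8 positive and 4 negative, and the smallest edgeR adjusted p was 0.195. LINC01058 had the largest value of the set, 1.47 ± 0.44, on 31 and 25 counts in TCN1_OE against 12 and 8 counts in NC. LINC01546 had the most negative, -1.36 ± 0.65, on 8 and 7 counts in TCN1_OE against 13 and 23 counts in NC. LINC01376 shows how such values can rest on 1 library: it had 24 and 38 counts in TCN1_OE and 24 and 3 counts in NC. These genes were named after their values were seen.

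Of 20 LINC genes listed for their record in keratinocytes or tumour cells, 15 were members, 2 had under 40 summed counts and 3 had no entry in the deposited data. None of the 15 passed edgeR: 9 were positive and 6 negative, with a median of 0.06 beside 0.01 for all genes fitted, and the smallest adjusted p was 0.144. LINC00963, first described in prostate cancer, had 3.56 and 3.95 FPKM in TCN1_OE, against 2.78 and 2.75 FPKM in NC, a log2 fold change of 0.44 ± 0.12 without overlap (edgeR adjusted p = 0.144). LINC01133, known from squamous and colorectal tumours, stood at 3.64 and 3.44 FPKM in TCN1_OE, against 2.77 and 2.73 FPKM in NC, or 0.37 ± 0.17 (edgeR adjusted p = 0.410). LINC00511, a long transcript studied as a tumour-promoting RNA, stood at 1.96 and 2.19 FPKM in TCN1_OE, against 1.86 and 1.68 FPKM in NC, or 0.23 ± 0.12 (edgeR adjusted p = 0.447).

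LINC00941, which restrains the differentiation of cultured human keratinocytes, had 11 and 13 counts in TCN1_OE, against 29 and 20 counts in NC. The groups did not overlap, and the log2 fold change was -1.02 ± 0.45 (edgeR adjusted p = 0.376) at levels under 0.1 FPKM. LINC00958, studied in several carcinomas, overlapped between the groups, at 4.67 and 3.88 FPKM in TCN1_OE and 5.14 and 4.40 FPKM in NC. LINC02381 stood at 0.66 ± 0.36 and LINC00857 at 0.21 ± 0.33. LINC01128, LINC00662, LINC00342, LINC01605, LINC00467 and LINC00665 lay between -0.12 and 0.13.

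Among listed long noncoding RNAs that carry a name of their own, positive values were also more frequent than negative ones. Of 40 listed for comparison, 31 were fitted, 6 had under 40 summed counts and 3 had no entry in the deposited data. Of the 31, 22 were positive and 9 negative, with a median of 0.12, and 1 was called higher and 0 lower. The called one was NEAT1, the scaffold RNA of nuclear paraspeckles, which rose by 0.55 ± 0.09 on the log2 scale (edgeR adjusted p = 0.0422), with 68.3 and 61.1 FPKM in TCN1_OE against 47.0 and 41.4 FPKM in NC. The next by adjusted p did not pass: MIR17HG, the host transcript of a growth-promoting microRNA cluster, stood at -0.89 ± 0.25, and MIR210HG, the host of a hypoxia-induced microRNA, at 0.82 ± 0.27. MALAT1, a nuclear speckle RNA abundant in most cells, was listed at 0.433 and 0.448 FPKM in TCN1_OE and at 0.288 and 0.182 FPKM in NC, with a log2 fold change of 0.88 ± 0.29 (edgeR adjusted p = 0.242).

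By position, 184 of the 190 genes were matched by identifier to GENCODE 29 on GRCh38, and 50 of these carried another symbol there. GENCODE 29 typed 147 as lincRNA, 18 as antisense, 15 as processed transcript, 2 as bidirectional promoter lncRNA, 1 as sense overlapping and 1 as protein-coding. They lay on 23 chromosomes, with the most, 25, on chromosome 1. The median distance to the nearest listed protein-coding gene was 16281 bp, and 27 lay beyond 100 kb of one. Despite the name, 15 overlapped the body of a protein-coding gene, and 11 began within 1 kb of the start of a coding gene on the opposite strand. Only 59 of the 184 had the exonic length in GENCODE 29 that the deposited counts and FPKM imply. The overlaps that follow are those of GENCODE 29 and may differ for the gene models counted. In 131 no exonic base was under another gene, and in 13 over 20% of the exonic bases were, up to 85.7% in LINC02603. The kit does not mark strand, so reads from the overlapping bases of those 13 cannot be assigned to 1 gene by strand. How such reads were counted is not known.

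LINC02518 and LINC02541 lie 183505 bp apart on the minus strand of chromosome 6, with MARCKS as the nearest listed coding gene of both. MARCKS, which encodes an actin-binding substrate of protein kinase C, lies 423941 bp from LINC02518 and 207272 bp from LINC02541. Its log2 fold change was 0.32 ± 0.08 (edgeR adjusted p = 0.143), beside 1.09 ± 0.16 for LINC02518 and 0.44 ± 0.12 for LINC02541. Neither LINC02541 nor MARCKS passed, and the value of LINC02518 is a description.

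At the end of chromosome 1, SAMD11 was the nearest listed coding gene of LINC02593, LINC01409, LINC00115 and LINC01128. SAMD11 stood at 0.50 ± 0.17 (edgeR adjusted p = 0.248). LINC02593, which lies 2912 bp from it on the opposite strand, stood at 0.55 ± 0.15, LINC01409 at 0.49 ± 0.22, LINC00115 at 0.38 ± 0.51 and LINC01128 at -0.12 ± 0.14.

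Across 163 LINC genes whose nearest listed coding gene was in the fit, 90 had the same sign as that neighbour. The fold changes of a pair had a Pearson r of 0.18 and a Spearman rho of 0.24 across pairs, given as a description, since both genes of a pair share the same libraries and the 163 pairs had 153 different neighbours. By distance, r and rho were 0.48 and 0.38 for 13 overlapping pairs, 0.22 and 0.13 for 44 within 5 kb, 0.18 and 0.24 for 68 at 5 to 50 kb, and 0.11 and 0.23 for 38 beyond 50 kb. The sign was shared in 7 of the 13 overlapping pairs, 23 of the 44, 36 of the 68 and 24 of the 38, so rho and the shared signs did not follow the order of r. Reads of overlapping genes may be shared. None of the 153 neighbours was called by edgeR, where 0.282% of all genes fitted were called higher and 0.188% lower. The median of the neighbours over the pairs was 0.01, against 0.13 for the LINC genes of the pairs.

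**Figure D5:**
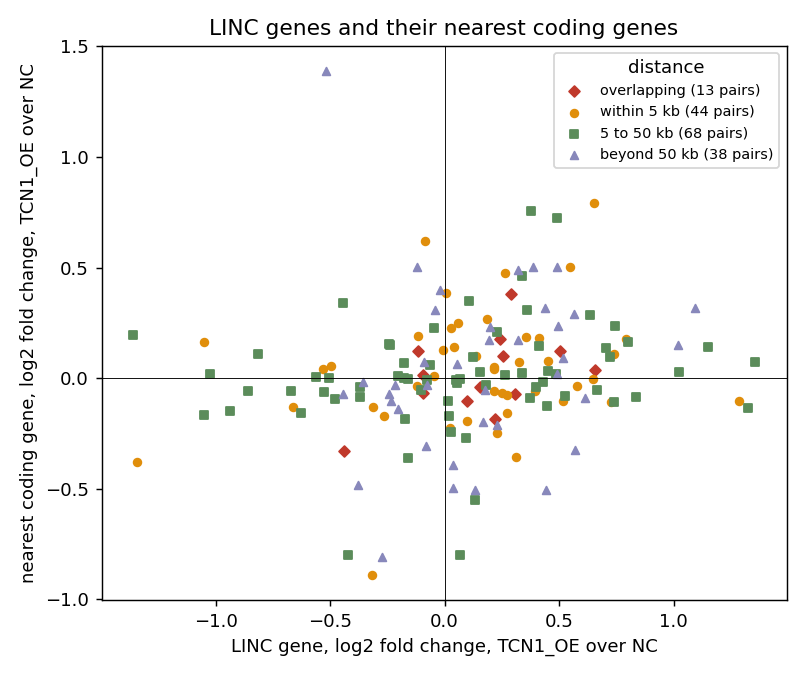
Log2 fold change of TCN1_OE over NC for 163 LINC genes (horizontal) and for the nearest listed protein-coding gene of each (vertical), with symbols by the distance between the 2 genes. The points are spread over all 4 sign combinations, and 90 of 163 pairs share a sign.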

How the data were processed

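RNA-seq of 4 libraries was used, prepared per the labels' protocols with the NEBNext Ultra kit, which does not mark strand. HISAT2, HTSeq 0.13.5 and GRCh38 are named in the submitters' processing notes; no source used here gives the HISAT2 version, the annotation release or how HTSeq treated strand and multi-mapped reads. Per the file headers, the authors deposited a raw count and an FPKM value per gene. The gene length implied by each deposited count, its FPKM and the library total was a whole number in 100% of nonzero values (tolerance 0.001 bp).

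Counts were fitted with edgeR 4.0.16 and tested by quasi-likelihood (R 4.3.3; TMM factors, robust estimation, group as the term) over 14889 genes with 40 or more summed counts, with Benjamini-Hochberg adjustment over all of them and a threshold of 0.05. SE is the log2 fold change divided by the root of F. DESeq2 1.42.0 and limma 3.58.1 were alternatives. On counts simulated for 2 TCN1_OE against 2 NC libraries and the same 14889 genes, edgeR called 28 of 67 genes given a 1.5-fold change, 47 of 67 given 2-fold and 58 of 66 given 4-fold, plus 8 false calls. The changed genes were drawn from all genes fitted, so these rates are not those of LINC genes. The median SE was 0.36 for LINC genes and 0.16 for all genes fitted.

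Named were LINC02518, the 15 members of highest FPKM, called members, the 8 largest values in each direction (100 or more counts, no overlap), a list of 20 known LINC genes and 40 other noncoding RNAs. The sequence of 1 member is not reported here. Members and lists were chosen with earlier results of these data known. Alternatives were other filters, normalisation and tests, a replicate block and each library left out.

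Depth limits the low members: at the median member length of 3697 bp, 3 counts are 0.0489 and 0.0550 FPKM in TCN1_OE and 0.0406 and 0.0700 FPKM in NC, a floor that covers counting error alone. Chi-square over its degrees of freedom came to 7.65 between the TCN1_OE libraries and 7.55 between the NC libraries, above counting noise, so no library was taken for a copy of another; this does not show that they were separate cultures.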

Additional observations from a re-analysis of the deposited data

How the results depend on the processing

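Over 440 alternative values for 40 named members, 409 were counted as keeping direction and side of the threshold. These include members to which DESeq2 gave no adjusted p, such as LINC02936 and LINC00941, so there only the direction was compared. Leaving out 1 library moved the log2 fold change of 19 of the 40 by over 1.5 times. Without a filter on low counts, edgeR called 200 genes higher and 275 lower, 3 and 1 of them LINC genes, and the LINC median was 0.10. DESeq2 called 112 and 114 genes, 2 and 0 of them LINC genes, with a median of 0.11. Limma on log2(FPKM + 0.5) and on log2(FPKM + 0.1) called 1 and 0 genes and 0 LINC genes, with medians of 0.055 and 0.088. With a limit of 20 summed counts the median was 0.12, and among members with 100 or more it was 0.18. Leaving out 1 library gave 111 to 205 genes higher and 108 to 137 lower, 1 to 3 LINC genes higher and 0 to 1 lower, and medians of 0.11 to 0.16.

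The labels do not say whether equal replicate numbers mark a pair, and a pairing was not tested. Deviations of the 2 replicate 1 libraries correlated at 0.14 over all genes and -0.11 over LINC genes. Between TCN1_OE and NC libraries, chi-square over its degrees of freedom was 11.2 for both replicates 1 and 9.29 for both replicates 2. It was 12.8 for TCN1_OE replicate 1 with NC replicate 2, and 17.5 for TCN1_OE replicate 2 with NC replicate 1. With the replicate number as a block, edgeR called 1301 genes higher and 1639 lower, 16 and 2 of them LINC genes. The LINC median was 0.10. Among those called were LINC02035 (edgeR adjusted p = 1.7e-06), LINC03080 (3.9e-09), LINC00963 (8.5e-06), LINC02541 (8.5e-05) and LINC02693 (0.0010). With crossed numbers, an alternative chosen after seeing the data, edgeR called 89 and 72 genes, 1 and 0 of them LINC genes.

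The share of counts in LINC genes was 0.0149 percentage points higher in TCN1_OE than in NC, 0.0156 with a limit of 20 counts, 0.0136 as a share of FPKM, and 0.0144 to 0.0154 when 1 library was left out. Signs turned for 6 uncalled members. Leaving out 1 library gave -0.71 (without TCN1_OE replicate 1) to 0.46 for LINC00665, which was also at -0.23 without NC replicate 2, at -0.014 without a filter and at -0.010 with limma at 0.1. It gave -0.27 (without TCN1_OE replicate 1) to 0.43 for LINC00467, and -0.045 (without TCN1_OE replicate 2) to 0.14 for LINC00342, which was at -0.022 without NC replicate 1. It gave -0.16 to 0.055 (without TCN1_OE replicate 2) for LINC01605, -0.15 to 0.027 (without NC replicate 1) for LINC02967 and -0.27 to 0.18 (without NC replicate 2) for LINC01560. The causes were not tested.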
